A study of Mus musculus with 8 samples.

Results

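The miR-132 and miR-212 miRNAs were followed in mouse kidneys 7 days after unilateral ureteral obstruction (UUO), the tying off of one ureter, which leads to inflammation and scarring of that kidney. All 4 mature arms of the 2 hairpins (mmu-miR-132-3p, mmu-miR-132-5p, mmu-miR-212-3p and mmu-miR-212-5p, written below without the species prefix) were taken by their names in the array annotation, 4 of the 1881 mouse miRNAs and 8 of the 4415 mouse probes on the array. The samples were whole kidney from male C57BL/6 mice aged 8 weeks, 4 labelled UUO surgery (UUO 1 to 4) and 4 labelled sham surgery (Sham 1, 2, 3 and 8), with 1 Agilent Cy3 miRNA array per sample. The labels do not say in words that each sample came from a different mouse, so the spread between samples may be partly technical. No gene was altered in either group, and what limits the comparison is that both hold unsorted kidney tissue, where fewer cells of a type and less RNA per cell cannot be told apart. The cluster was selected on the UUO and Sham signals of these same arrays, so their differences between the groups are given as a description, without p-values.

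miR-132 and miR-212 are made from one primary transcript, which the transcription factor CREB induces in neurons and other cells after stimulation. The 3p arms are the usual guide strands and share their seed (bases 2 to 8), the part of a miRNA that pairs with target mRNAs. Known targets of miR-132 include the GTPase regulators Arhgap32 in neurons and Rasa1 in endothelium. In mouse kidney, silencing of miR-132 was reported to reduce the proliferation of myofibroblasts, the matrix-producing cells of scar tissue, after ureteral obstruction.

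The mature sequences are shown because the comparison turns on how alike the arms are. All 4 matched a RefSeq entry (GRCm38.p6), and capitals mark the seed.

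miR-132-3p: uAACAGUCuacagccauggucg
miR-212-3p: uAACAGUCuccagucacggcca
miR-132-5p: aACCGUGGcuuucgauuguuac
miR-212-5p: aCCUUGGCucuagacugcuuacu

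Both 3p arms carried the seed AACAGUC, which no other of the 1679 mature mouse names searched had, and neither 5p seed was shared with any of them. The 3p arms were identical at their first 9 bases and at 17 of 22 in all. Counted from 1 at the 5′ end and with the miR-132-3p base first, they differed by A10C, C14U, U17C, U20C and G22A.

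The hairpins lie on the plus strand of chromosome 11, Mir212 at chr11:75173388-75173478 and Mir132 at chr11:75173682-75173747 (GRCm38.p6), with 203 bases between them. They are printed with the mature arms in capitals, the 5p arm first, to show that each hairpin gives rise to a 5p and a 3p arm.

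Mir212: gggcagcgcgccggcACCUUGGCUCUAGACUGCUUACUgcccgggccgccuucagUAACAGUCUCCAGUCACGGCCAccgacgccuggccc
Mir132: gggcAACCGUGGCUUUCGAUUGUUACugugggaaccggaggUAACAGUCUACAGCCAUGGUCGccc

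Each arm was read by 2 probes on the array, short DNA sequences complementary to the 3′ part of the miRNA. The probes of the 3p arms decide how far the array can separate the arms, and capitals mark the bases opposite those that differ between miR-132-3p and miR-212-3p.

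miR-132-3p, 16 bases: CgAccAtgGctgTaga
miR-132-3p, 15 bases: CgAccAtgGctgTag
miR-212-3p, 14 bases: TgGccGtgActgGa
miR-212-3p, 13 bases: TgGccGtgActgG

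Every one of these probes covers all 5 differing bases. The miR-132-3p probes are listed at chr11:74987232-74987246 and chr11:74987233-74987246 and the miR-212-3p probes at chr11:74986954-74986966 and chr11:74986955-74986966 (mm9, the build of the files). The miR-212-3p probes were short and GC-rich for this array: 31.5% of mouse probes had 14 bases or fewer, and 78.6% had a lower GC content than the 64.3% of the longer miR-212-3p probe. The longest run that the 14-base probe's target shared with another mature mouse miRNA was 8 bases, in miR-12202-3p, against 10 bases, in miR-1911-5p, for the 16-base probe of miR-132-3p.

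miR-132-3p was far higher in UUO kidneys than in Sham kidneys, while the signal of miR-212-3p was slightly lower. miR-132-5p was at background on all 8 arrays. No spot of miR-212-5p was called well above background on any array either, but 1 of its probes gave a small signal on the UUO arrays.

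Signals of miR-132-3p are given first in the intensity units of the scanner software, background-subtracted and not scaled between arrays. Its 16-base probe read 159, 131, 139 and 159 on UUO 1 to 4, against 24.3, 20.3, 22.3 and 20.3 on Sham 1, 2, 3 and 8. Every UUO value was above every Sham value, with UUO 2 the lowest UUO array and Sham 1 the highest Sham array. The 15-base probe read 106, 86.4, 89.7 and 105 on the UUO arrays, against 13.9, 12.8, 13.8 and 13.0 on the Sham arrays. The order of the UUO arrays was nearly that of the other probe, with UUO 1 and 4 above UUO 2 and 3.

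**Figure D1:**
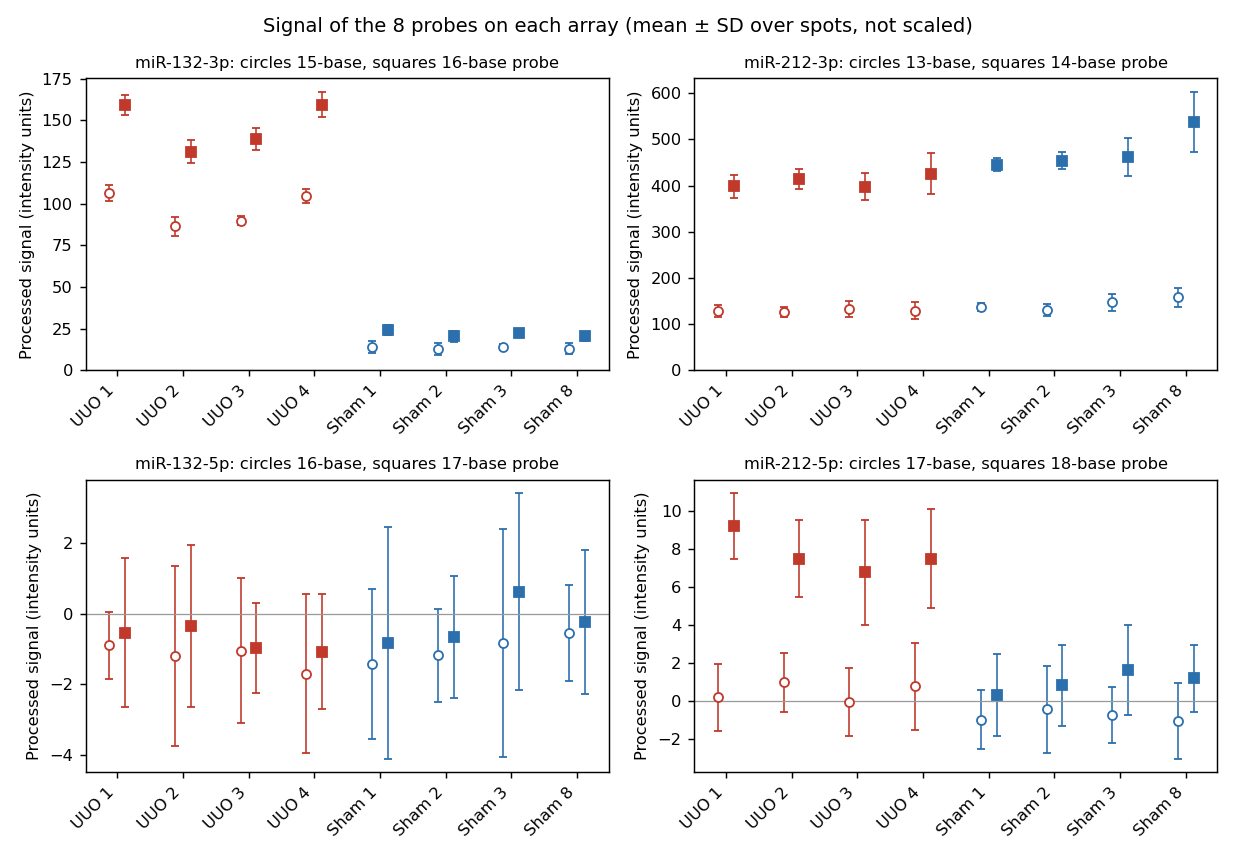
Processed signal in intensity units, not scaled between arrays, of the 2 probes of each arm on the 4 UUO arrays (red) and the 4 Sham arrays (blue), as the mean and SD over up to 15 spots per probe. miR-132-3p is high on all UUO arrays, miR-212-3p lies slightly lower on them, miR-132-5p stays around 0, and the 18-base probe of miR-212-5p reads 6.77 to 9.19 on UUO arrays and 0.318 to 1.63 on Sham arrays.

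For comparison between arrays each signal was divided by the 75th percentile of its array over the 623 probes detected on all 8 arrays, a probe being called detected where the software put over 50% of its spots well above background, and log2 was taken above a floor of −4.89. On this log2 scale the 16-base probe of miR-132-3p was at −1.60, −1.73, −1.73 and −1.59 on UUO 1 to 4, against −4.09, −4.28, −4.18 and −4.34 on Sham 1, 2, 3 and 8. The level averaged −1.66 ± 0.08 in UUO and −4.22 ± 0.11 in Sham (SD, n = 4 each). The difference was 2.56 ± 0.07 (SE of the limma fit across all tested miRNAs), a 5.90-fold higher level in UUO. All 8 arrays were on 1 slide, with the UUO arrays in its second row and the Sham arrays in its first, so row and group cannot be told apart. The gap between the lowest UUO and the highest Sham value was 2.36 on the log2 scale, many times the spread within either group.

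The 15-base probe gave a log2 difference of 2.61 ± 0.05 (SE of the difference between means, n = 4 each), but this value rests on the floor. That probe was detected on 4 UUO arrays and on 1 Sham array, Sham 3, with 56 of 56 spots well above background in UUO and 28 of 59 in Sham. The 16-base probe had 60 of 60 spots well above background in UUO and 59 of 60 in Sham. Over the spots of 1 array its signal varied by 3.76 to 16.7% (coefficient of variation).

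miR-212-3p, made from the same transcript and with the same seed, did not share this rise in signal. Its 14-base probe read 398, 414, 397 and 426 intensity units on UUO 1 to 4, against 446, 454, 461 and 537 on Sham 1, 2, 3 and 8. The UUO arrays were all below the Sham arrays, and Sham 8 stood above the other Sham arrays. Its 13-base probe read 128, 127, 132 and 129 on the UUO arrays, against 137, 130, 147 and 158 on the Sham arrays, and here UUO 3 lay above Sham 2, so the groups overlapped before scaling. All spots of both probes that were used were well above background in both groups.

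After scaling, the 14-base probe was at −0.27, −0.07, −0.21 and −0.18 on UUO 1 to 4, against 0.11, 0.20, 0.19 and 0.38 on Sham 1, 2, 3 and 8 (log2). The level averaged −0.18 ± 0.09 in UUO and 0.22 ± 0.11 in Sham (SD, n = 4 each), a difference of −0.41 ± 0.07 (SE of the limma fit), which is a 1.32-fold lower level in UUO. The groups were separated by 0.18 between UUO 2 and Sham 1. The 13-base probe differed by −0.34 ± 0.06 (SE of the difference between means, n = 4 each) and its scaled values did not overlap. Both arms varied about as much between arrays as other miRNAs: the pooled SD was 0.10 for each, and 39.5% of the tested miRNAs had a smaller SD than miR-132-3p and 43.4% a smaller one than miR-212-3p.

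Within an array the ratio of the 3p arms does not depend on a factor per array. Relative to its Sham mean, miR-132-3p exceeded miR-212-3p by 3.12, 2.79, 2.93 and 3.03 on UUO 1 to 4 (log2), against 0.24, −0.04, 0.07 and −0.28 on Sham 1, 2, 3 and 8. The change of miR-132-3p was thus 2.97 larger than that of miR-212-3p, and the smallest UUO value was 2.79 where the largest Sham value was 0.24. This shows unequal change of the probe signals of the 3p arms and does not show that either miRNA stayed the same. Whether other RNA adds to the signal of the miR-212-3p probes was not tested.

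Of the 4 arms, the 2 3p arms met the detection limit for the fit, which took in the 408 miRNAs whose representing probe was detected on at least 4 of 8 arrays. Both had UUO and Sham values that did not overlap, as had 61.3% of the 408 tested miRNAs (35.0% with UUO above Sham and 26.2% with UUO below). By limma at an adjusted p under 0.05, 39.7% of the tested miRNAs were called higher and 27.7% lower in UUO, 67.4% in either direction. These shares are given as background only, because the contrast was known when the arms were chosen. miR-132-3p ranked 3 among the 408 by the size of the increase, whereas 80 of the 408 had a lower value than miR-212-3p.

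**Figure D2:**
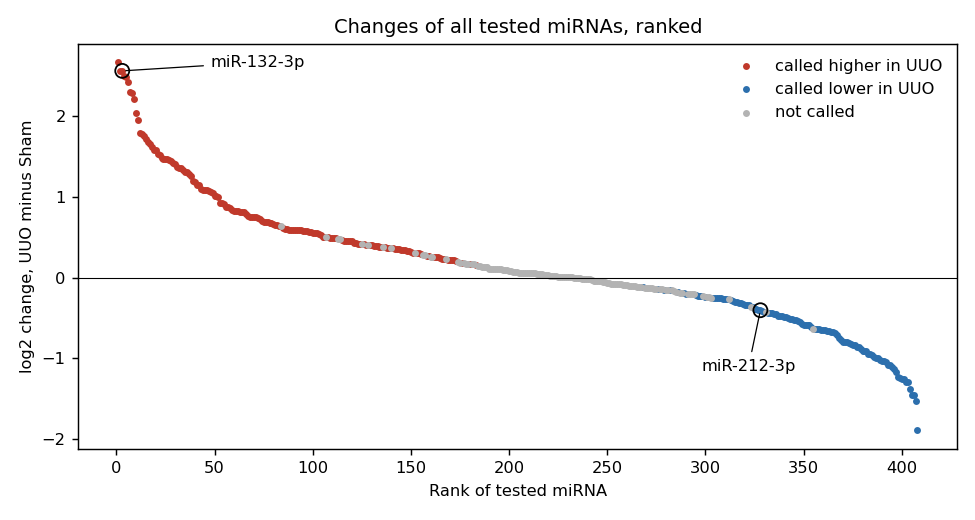
The log2 change (UUO minus Sham) of the 408 tested miRNAs on the vertical axis against their rank, coloured by the limma call, with the 3p arms circled. miR-132-3p stands at 2.56, rank 3 from the top, and miR-212-3p at −0.41.

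The sign of the change of each 3p arm was the same in all 8 ways of scaling or summarising the arrays, but the sizes moved. The change of miR-132-3p lay between 2.26 and 2.84, except for 1.09 with normexp background correction, which adds an offset of 50 to every spot. That of miR-212-3p ran from −0.73 ± 0.09 with the total intensity per miRNA to −0.13 ± 0.08 with scaling to the dmr control features (SE of the limma fit). With the dmr scaling and with the percentile over all mouse probes, UUO and Sham values of miR-212-3p overlapped. The median change of all tested miRNAs moved with the setting too, from −0.23 to 0.33. Relative to that median miR-212-3p lay between −0.50 and −0.45 in all 8 settings and miR-132-3p between 2.36 and 2.51, or 1.11 with normexp. The distance between the 3p arms was 2.86 to 2.99 in the settings other than normexp, where it was 1.56. A factor per array moves both arms and the median almost together. Settings that differ only by such a factor therefore give nearly the same values relative to the median, and the same distance. These values are thus no check on the size of the fall of miR-212-3p.

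**Figure D3:**
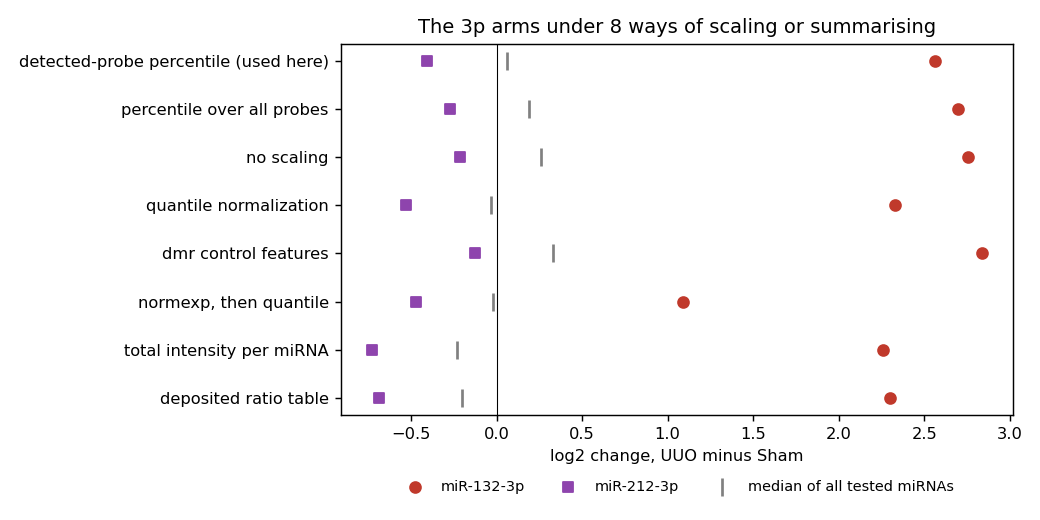
The log2 change (UUO minus Sham) of miR-132-3p (red circles) and miR-212-3p (purple squares) and the median change of all tested miRNAs (grey bars) under 8 ways of scaling or summarising the same arrays. miR-132-3p stays above 1 and miR-212-3p below 0 in each, between −0.73 and −0.13.

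The 5p arms, usually the passenger strands, gave far less signal. The 16-base and 17-base probes of miR-132-5p averaged −1.21 ± 0.35 and −0.73 ± 0.34 intensity units in UUO and −0.99 ± 0.38 and −0.28 ± 0.65 in Sham (SD, n = 4 each). None of their spots was well above background on any array. No rise of miR-132-5p was therefore detectable beside that of miR-132-3p.

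The probes of miR-212-5p are printed because they gave unequal signals although they differ by 1 base at the 3′ end.

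miR-212-5p, 18 bases: agtaagcagtctagagcc
miR-212-5p, 17 bases: agtaagcagtctagagc

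The 18-base probe read 9.19, 7.47, 6.77 and 7.49 intensity units on UUO 1 to 4, against 0.318, 0.822, 1.63 and 1.19 on Sham 1, 2, 3 and 8. Every UUO array was above every Sham array, by at least 5.14 units, although no spot was called well above background and no fold is given. In UUO 56 of 59 spots exceeded the 95th percentile of the negative control spots of their array, against 4 of 59 in Sham. The 17-base probe averaged 0.47 ± 0.48 in UUO and −0.80 ± 0.27 in Sham (SD, n = 4 each), also without overlap, and 3 of 60 spots in UUO and 0 of 59 in Sham exceeded that percentile.

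The signal of the 18-base probe differed by 6.74 units between the groups. Among the 3495 probes that were detected on no array, it ranked 6 by that difference, and in 6.21% of these probes every UUO array was above every Sham array. In the other direction 15 of them were lower in UUO by more than 6.74 units, and in 3.32% every UUO array was below every Sham array. The probe signals of the Mir212 arms thus differed in opposite directions, with the 5p signal higher in UUO but below the detection limit and the 3p signal lower. The longest run that the 18-base probe's target shared with another mature mouse miRNA was 8 bases, in 6 such miRNAs. Whether the 5p signal came from miR-212-5p was not tested.

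**Figure D4:**
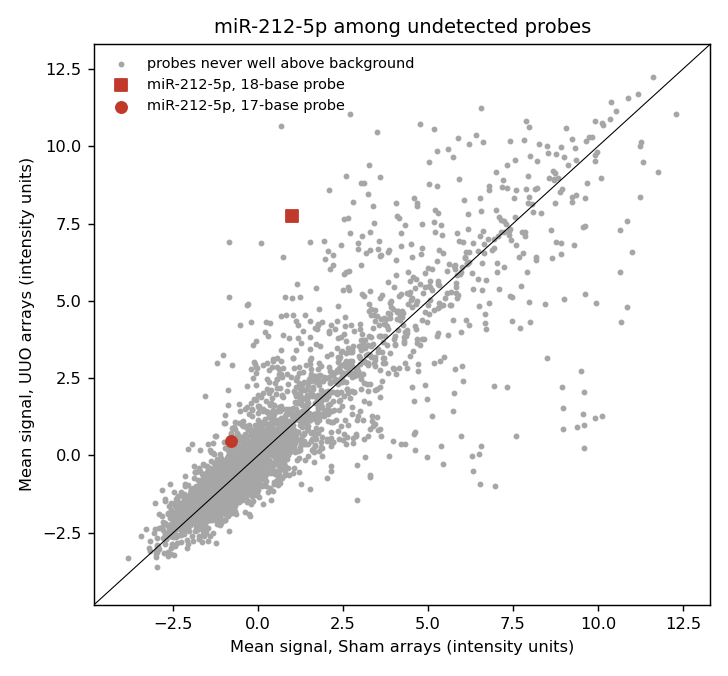
Mean signal on the 4 UUO arrays against the mean on the 4 Sham arrays, in intensity units, for the 3495 probes that were well above background on no array, with the miR-212-5p probes in red and the line of equality. The 18-base probe lies at 7.73 in UUO and 0.991 in Sham, and the 17-base probe near the line.

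The total intensity per miRNA that the scanner software writes treated these arms differently. For miR-132-3p it was 70.2 ± 6.86 in UUO and 10.02 ± 0.624 in Sham, and for miR-212-3p 155 ± 4.77 in UUO and 176 ± 15.8 in Sham (SD, n = 4 each). For miR-212-5p it was 2.62 on UUO 1 and 0.1, the value miR-132-5p had on every array, on the other 7 arrays. In the authors' deposited table of ratios miR-212-5p stands at 19.1 on UUO 1, against 0.691 to 1.15 on the other arrays. Those other arrays all had a total of 0.1, which was treated here as not detected, so the 19.1 is no measured fold. The authors' deposited table has miR-132-3p at 2.25, 2.09, 2.09 and 2.15 on UUO 1 to 4, against 0.440, 0.439, 0.479 and 0.390 on Sham 1, 2, 3 and 8.

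The UUO arrays were somewhat brighter than the Sham arrays. The 75th percentile used for scaling was 465 ± 22.2 intensity units in UUO and 406 ± 8.67 in Sham (SD, n = 4 each), with every UUO array above every Sham array, and 740 to 800 probes were detected per UUO array, against 720 to 754 per Sham array. No spot of a mouse probe was saturated. The part of this brightness in the changes of the 3p arms is seen in the values without scaling, 2.75 for miR-132-3p and −0.21 for miR-212-3p. The balance of the calls over all miRNAs depended on the scaling: 58.9% of the calls were higher in UUO here, and 33.4 to 78.7% in the other settings.

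The profiles nearest to that of miR-132-3p were found by the root mean square difference over the 8 arrays, after each profile was set to its own Sham mean. The 5 nearest of the 408 were miR-21a-5p at 0.08, miR-146b-5p at 0.13, miR-214-3p at 0.14, miR-511-3p at 0.14 and miR-223-3p at 0.23. Of these miR-21a is known from fibrotic tissue, miR-146b as an inhibitor of inflammatory signalling, miR-214 from fibroblasts, miR-511 from macrophages and miR-223 from myeloid cells. Their log2 changes ran from 2.30 ± 0.07 for miR-223-3p to 2.66 ± 0.07 for miR-146b-5p (SE of the limma fit), a size fixed by how they were picked and given without a test. miR-511-3p was detected on no Sham array, so its nearness rests on the floor and its Sham level has only a bound. Its UUO mean of −2.40 was at least 5.99-fold above −4.98 (log2). That value is the mean over the Sham arrays of each array's own lowest signal among detected probes. It lies under the common floor of −4.89. The log2 change of miR-511-3p ran from 1.01 to 8.29 over the 8 settings. The 5 nearest to miR-212-3p were miR-218-5p, miR-22-3p, miR-200b-3p, miR-7671-3p and miR-200a-5p, at 0.08 to 0.09, with log2 changes from −0.46 to −0.32, likewise fixed by the choice. Nearness by this measure describes the 2 group means and their spread, and it says nothing of shared control.

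A list of miRNAs known to be induced together with miR-132 by inflammatory stimuli in myeloid cells had 8 members besides miR-132, of which 6 were tested. Of these 5 rose (4 or 5 over the 8 settings) and 1 was not called by limma, with a median log2 change of 1.20, against 0.06 over all tested miRNAs and 39.7% of all tested miRNAs called higher. miR-146b-5p rose by 2.66 ± 0.07, miR-21a-5p by 2.56 ± 0.04, miR-155-5p by 1.48 ± 0.06 and miR-146a-5p by 0.92 ± 0.13 (log2, SE). miR-125a-5p rose by 0.34 ± 0.06 and was not called in 2 of the 8 settings, and miR-9-5p was at −0.14 ± 0.20. miR-147-3p and miR-187-3p were not detected often enough to be tested. The list was chosen with earlier results of these data known, so its counts are a description. Its members miR-146b-5p and miR-21a-5p are also among the profiles nearest to miR-132-3p above.

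Of miRNAs regulated by neuronal activity or studied with miR-132 in neurons, 4 of 7 were tested, and 1 rose and 1 fell (0 to 2 and 1 to 3 over the settings), with a median log2 change of −0.20. With 4 tested, this is near the shares of all tested miRNAs called higher (39.7%) and lower (27.7%). miR-188-5p was at 0.55 ± 0.15 and miR-219a-5p, like miR-132 a miRNA of the circadian clock, at −0.58 ± 0.06, while miR-9-3p was at −0.43 ± 0.19 and miR-128-3p at 0.03 ± 0.05 (log2, SE). miR-188-5p was called in 4 of the 8 settings and miR-219a-5p in 8. The neuron-specific miR-124-3p was not detected often enough to be tested.

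Of 9 angiogenesis miRNAs, all tested, 3 rose, 2 fell and 4 were not called, with a median log2 change of −0.07, and over the 8 settings 0 to 6 rose and 1 to 6 fell. These counts are near the shares of all tested miRNAs, 39.7% called higher and 27.7% called lower, and are no result about the list. miR-92a-3p (0.50 ± 0.06), miR-296-5p (0.42 ± 0.07) and miR-222-3p (0.23 ± 0.07) rose, and miR-378a-3p (−0.96 ± 0.07) and miR-126a-5p (−0.22 ± 0.07) fell. miR-126a-3p was at −0.14 ± 0.06, miR-221-3p at −0.07 ± 0.05, miR-130a-3p at 0.02 ± 0.06 and miR-210-3p at −0.36 ± 0.23. The sign of miR-222-3p, of both miR-126a arms, of miR-221-3p and of miR-130a-3p turned between the 8 settings.

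Around the cluster, 9 further tested miRNAs have probes listed within 5 Mb on chromosome 11 (mm9). Over all tested miRNAs 27.7% were called lower and 39.7% higher. Of the 9 neighbours 7 fell (5 to 7 over the 8 settings) and 2 rose (0 to 2). Their median log2 change was −0.81. The nearest, miR-22-3p and miR-22-5p at 0.29 Mb, were at −0.41 ± 0.06 and −0.31 ± 0.06, so miR-22-3p changed about as much as miR-212-3p. At 2.90 Mb lie the erythroid miR-144-3p (−0.81 ± 0.23) and miR-451a (−0.84 ± 0.20), and at 4.54 to 4.55 Mb miR-193a-5p (−1.38 ± 0.08), miR-193a-3p (−1.30 ± 0.10) and miR-365-3p (−1.04 ± 0.09). On the other side, at −4.94 Mb, lie miR-497a-5p (0.39 ± 0.05) and miR-195a-5p (0.21 ± 0.05), each called higher in 4 of the 8 settings, and the sign of miR-195a-5p turned in others. Several of these share a hairpin or a transcript and are not independent.

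**Figure D5:**
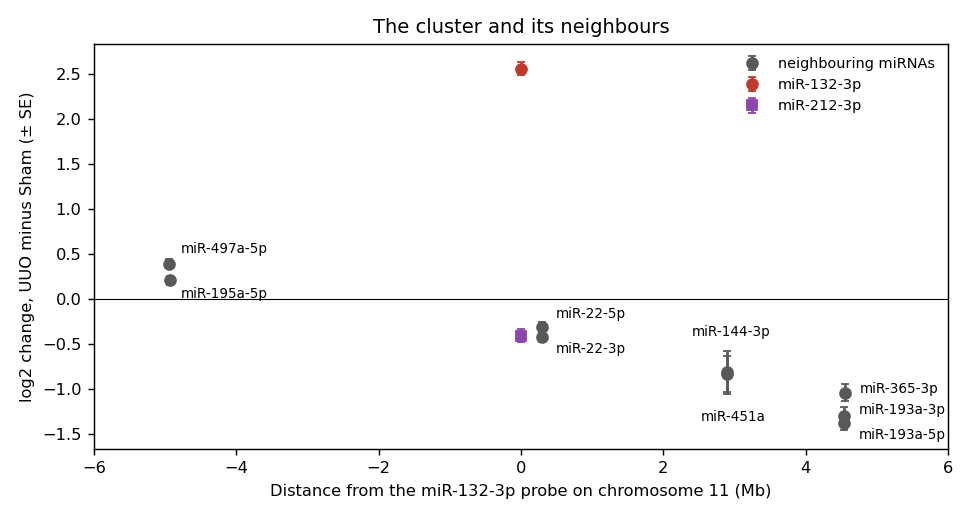
The log2 change (UUO minus Sham, with the SE of the fit) of miR-132-3p, miR-212-3p and the 9 tested neighbours against the distance in Mb from the miR-132-3p probe on chromosome 11. miR-132-3p at 2.56 lies far above every neighbour, and miR-212-3p lies beside miR-22-3p and miR-22-5p.

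Markers of several cell types also differed between the groups, some higher and some lower in UUO. Their counts are to be read against the 39.7% of all tested miRNAs called higher and the 27.7% called lower. All 7 leukocyte markers rose (6 or 7 in each of the 8 settings), with a median log2 change of 2.03. Their summed level was 2.96 to 3.14 in UUO and 0.92 to 1.09 in Sham (log2 of the summed scaled signal). Among them miR-511-3p was detected on no Sham array, so it was tested through its UUO arrays alone and its rise is measured from the floor. With only miRNAs detected on all 8 arrays, 6 leukocyte markers were called higher. The marker miR-155-5p was also counted in the list on inflammation. Of the 6 fibroblast markers 5 rose (4 or 5 over the settings, with the sign of miR-143-3p and miR-145a-5p turning), with summed levels of 3.98 to 4.20 in UUO and 2.63 to 2.77 in Sham. Of the 10 kidney epithelium markers 7 fell and 3 were not called (5 to 9 fell over the settings, with the sign of miR-200c-3p, miR-204-5p and miR-10a-5p turning), with summed levels of 5.68 to 5.90 in UUO and 6.48 to 6.58 in Sham. Of the 2 endothelial markers, whose signs both turned between settings, 1 fell here (summed 3.42 to 3.63 in UUO and 3.64 to 3.73 in Sham), and of the 3 red blood cell markers 2 fell (summed 1.09 to 1.94 in UUO and 1.89 to 2.45 in Sham). Of the 2 neuron markers, miR-9-5p alone was tested and was not called. Some markers are both arms of a hairpin (miR-142a-3p and miR-142a-5p, miR-199a-3p and miR-199a-5p) and are not independent. The part of these cell types in the change of either 3p arm was not tested.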

How the data were processed

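The authors deposited spot intensities of 8 arrays made with Agilent Feature Extraction 10.7.3.1, per the submitters' processing notes and the file headers. The deposited intensity of a spot is linear, has a spatial background surface subtracted (equal to the background used at every mouse spot) and is not normalized between arrays. The authors also deposited a table of ratios per miRNA, whose centring and array factor are not given in the sources used here. It was used as an alternative.

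Here control spots and outlier spots (2.64 to 2.95% of an array's mouse spots) were dropped, the remaining spots of each probe averaged, and the brightest probe, by its mean over arrays, stood for its miRNA. The 408 tested miRNAs were fitted with limma 3.58.1 in R 4.3.3 (lmFit, eBayes, group as the only term), and p-values were adjusted by Benjamini-Hochberg over all of them. The fit was tested on simulated data. The number of arrays limits the precision.

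The arms, lists and alternatives were chosen with earlier results of these data known. The miRNAs named were all arms and probes, the 5 profiles nearest to each tested arm, and all tested members of the lists on inflammation, neurons, angiogenesis and neighbours. Markers of cell types were counted. Alternatives changed the scaling, background correction, summary per miRNA, floor, outlier spots, detection filter, arrays and design.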

Additional observations from a re-analysis of the deposited data

Results flagged for a closer look

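In groups of 4 arrays, 1 array stood far from the other 3 in 8 of 128 groups examined (6.25%), where chance gives about 5%. For the 14-base probe of miR-212-3p, Sham 8 read 537 intensity units unscaled, against 446 to 461 on the other Sham arrays. After scaling, this array did not pass the same limit. The other cases were miRNAs named beside the arms, on the scaled log2 scale. miR-125a-5p was at 0.67 on UUO 2, against 0.59 on each of the other UUO arrays. miR-188-5p was at −2.99 on UUO 2, against −2.66 to −2.64. miR-486a-5p was at −4.81 on UUO 2, where the others were at the floor. miR-130a-3p was at 2.35 on Sham 8, against 2.27 to 2.28 on the other Sham arrays, and miR-214-3p at −2.31 on Sham 8, against −2.38 on each of the others. miR-150-5p was at −3.29 on Sham 3, against −2.98 to −2.91, and miR-21a-5p at 4.04 on Sham 2, against 4.09.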

How the results depend on the processing

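The change of miR-132-3p (2.56) was 2.70 with the percentile taken from every mouse probe, 2.75 without scaling, 2.33 with quantile normalization, 2.84 with the dmr scaling, 1.09 with normexp and quantile normalization, 2.26 with the total intensity, 2.30 with the deposited ratios and 2.23 with the floor raised to 2 times its value. That of miR-212-3p (−0.41) was −0.27, −0.21, −0.53 and −0.13 in the first 4 of these, and −0.73 by total intensity and −0.69 by the deposited ratios. Their distance (2.97) was 1.56 with normexp and 2.63 with the raised floor. Leaving out 1 array at a time gave 2.52 to 2.60 for miR-132-3p, −0.44 to −0.35 for miR-212-3p, 2.87 to 3.05 for their distance, 6.25 to 7.06 for the signal difference of the 18-base miR-212-5p probe (6.96 with outlier spots kept), 147 to 171 miRNAs called higher and 106 to 117 called lower. Called lower were 113 miRNAs here, 64 with the dmr scaling, 217 by total intensity and 207 by the deposited ratios. Of the 5 profiles nearest to miR-132-3p, 2 were again among the nearest 5 with normexp and 3 each with the total intensity and the raised floor. For miR-212-3p these counts were 1 with quantile normalization, 0 with normexp, and 3 each with the total intensity, the deposited ratios and the mean of probes. The distance, the likeness counts and the 5p signal difference were added after the data were seen. The causes were not tested.

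With the replicate number as a block, over UUO and Sham 1 to 3, miR-132-3p was at 2.50 and miR-212-3p at −0.35, and 142 miRNAs were called higher and 84 lower. Deviations of same-numbered arrays correlated at −0.00, 0.12 and −0.30, and those of differently numbered arrays at −0.45 to 0.36. These few values cannot show whether the numbers mark a pairing. No log2 change is given under any alternative for miR-132-5p or miR-212-5p, since no probe of either was called detected on any array.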
